A study of Mus musculus with 2 samples.

Results

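The 8 genes described here encode proteins that set how long T cell mRNAs last: the tristetraprolin family (Zfp36, Zfp36l1 and Zfp36l2), the Regnase genes Zc3h12a and Zc3h12d, the Roquin genes Rc3h1 and Rc3h2, and Elavl1, which encodes HuR. They were picked by gene name in the GENCODE M21 annotation, and all 8 were found among 55536 named genes, with 27 of 141862 annotated transcripts. The cells were regulatory T cells, the CD4 T cells that hold immune responses in check, from an adult male mouse of 9 weeks. Its strain, spelled Foxp3GFP-DTRCD4CreERT2R26tdTomato in the labels, names GFP and DTR at Foxp3, a CreERT2 at CD4 and a tdTomato at R26. Whether tamoxifen or diphtheria toxin was given, and how the cells were purified, the labels did not say. There was 1 group with 2 technical replicate libraries of biological replicate 1, made from polyadenylated RNA. No condition can therefore be compared. Every p-value of an exact binomial test measures the counting error between these 2 libraries, and their means are given ± SD (n = 2 technical libraries). The p-values of edgeR's exact test set a difference against the spread between the same libraries, estimated over all genes.

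Messenger RNAs of cytokines and costimulatory receptors carry short signals in their 3′ untranslated regions (UTRs) that mark them for rapid destruction. Proteins of the tristetraprolin family bind AU-rich elements and recruit the CCR4-NOT complex, which shortens the poly(A) tail. Regnase-1, made from Zc3h12a, is an endonuclease that cuts stem-loops, and the Roquins bind similar stem-loops and also recruit CCR4-NOT. HuR binds AU-rich and U-rich RNA as well but is best known for protecting mRNAs, so Elavl1 is the counterpart of the other genes rather than a decay factor, and the common name of the set fits it poorly. In T cells the paracaspase MALT1 cleaves Regnase-1 and the Roquins after antigen receptor signals.

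The tristetraprolin family and the Roquins carry zinc fingers with 3 cysteines and 1 histidine. The stretches that encode these fingers are shown to make clear how alike the stretches are. The codons of each finger were found by their spacing (8, 5 and 3 codons between the 4 zinc-binding residues) in the transcript with the largest share of each gene, in GENCODE M21 on mm10. Each stretch is 60 bases, and capitals mark the cysteine and histidine codons. The fingers of Zfp36 lie at chr7:28378158-28378217 and chr7:28378044-28378103, those of Zfp36l1 at chr12:80110189-80110248 and chr12:80110075-80110134, and those of Zfp36l2 at chr17:84186668-84186727 and chr17:84186554-84186613, all on the minus strand. The Roquin fingers lie at chr1:160950255-160950314 on the plus strand (Rc3h1) and chr2:37398264-37398323 on the minus strand (Rc3h2). Every stretch is in 1 coding exon.
Zfp36, finger 1: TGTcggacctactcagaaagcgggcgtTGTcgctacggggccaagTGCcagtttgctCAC
Zfp36l1, finger 1: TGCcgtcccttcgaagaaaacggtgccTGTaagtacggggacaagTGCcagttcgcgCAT
Zfp36l2, finger 1: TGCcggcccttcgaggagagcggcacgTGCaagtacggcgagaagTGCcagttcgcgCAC
Zfp36, finger 2: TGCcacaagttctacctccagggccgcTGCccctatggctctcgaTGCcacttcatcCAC
Zfp36l1, finger 2: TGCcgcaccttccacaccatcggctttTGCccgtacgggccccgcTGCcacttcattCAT
Zfp36l2, finger 2: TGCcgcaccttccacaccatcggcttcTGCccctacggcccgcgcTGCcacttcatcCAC
Rc3h1, finger: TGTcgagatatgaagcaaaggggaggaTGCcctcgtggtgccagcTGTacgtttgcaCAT
Rc3h2, finger: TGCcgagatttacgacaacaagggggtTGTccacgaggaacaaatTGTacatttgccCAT
The fingers of the tristetraprolin family come as a pair, 18 codons apart in all 3 genes. Finger 2 of Zfp36l1 and of Zfp36l2 had 54 of 60 bases in common (90%), and finger 1 of these genes 49 (81.7%). Zfp36 stood further off, with 66.7% of bases shared with Zfp36l1 and 75.0% with Zfp36l2 in finger 2. The single Roquin fingers shared 39 bases (65.0%). Roquin and tristetraprolin fingers had between 40% and 51.7% of bases in common. The search required the 4 capitalized codons, so part of each of these shares was set in advance. No stretch with this spacing was in the coding sequences of Zc3h12a, Zc3h12d or Elavl1, which says only that these spacings are not there.

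On mm10 the tristetraprolin genes lie at chr7:28376784-28380253 (Zfp36, ENSMUSG00000044786.6), chr12:80107754-80113013 (Zfp36l1, ENSMUSG00000021127.7) and chr17:84183931-84187947 (Zfp36l2, ENSMUSG00000045817.8), all on the minus strand. Zc3h12a (ENSMUSG00000042677.7) lies at chr4:125118423-125127840 on the minus strand and Zc3h12d (ENSMUSG00000039981.6) at chr10:7832470-7870396 on the plus strand. Rc3h1 (ENSMUSG00000040423.10) lies at chr1:160906418-160974978 on the plus strand, Rc3h2 (ENSMUSG00000075376.10) at chr2:37370069-37422903 on the minus strand, and Elavl1 (ENSMUSG00000040028.10) at chr8:4285382-4325413 on the minus strand. All are protein-coding and on 8 different chromosomes.

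All 8 genes were detected, with at least 1 TPM (the deposited transcript level, corrected for length and library size) in both libraries, and they spanned a wide range of levels. Zfp36 was the highest, at 233 TPM in the first technical library (technical replicate 1) and 218 TPM in the other (technical replicate 2). Zfp36l1 followed with 125 and 130 TPM. These libraries do not overlap between the genes, nor with any of the others. Zfp36 ranked 753 and Zfp36l1 ranked 1456 by mean TPM, where 12980 genes were detected.

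The other genes were far below Zfp36. Zfp36 had 12.4 and 10.9 times the TPM of Zfp36l2 and 40.3 and 28.9 times that of Rc3h1. Zc3h12a, which encodes Regnase-1, had 25.2 and 23.3 TPM. Zfp36l2, the third tristetraprolin gene, had 18.8 and 20.01 TPM. Below these the order was less certain.

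Rc3h2, the gene of Roquin-2, had 15.1 and 20.6 TPM, and Zc3h12d, the gene of the related Regnase-4, had 12.9 and 21.6 TPM. Elavl1 had 9.14 and 14.1 TPM, and Rc3h1, the gene of Roquin-1, was last with 5.79 and 7.54 TPM. The values of Zfp36l2 overlapped those of Rc3h2, those of Rc3h2 overlapped those of Zc3h12d, and those of Zc3h12d overlapped those of Elavl1, when taken across the libraries. Within each library the order of Zfp36l2 and Rc3h2, and of Rc3h2 and Zc3h12d, turned from one library to the other. Zc3h12d was above Elavl1 within both libraries, and Elavl1 above Rc3h1. In bulk RNA, fewer cells with an mRNA and less of it per cell cannot be told apart.

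**Figure D1:**
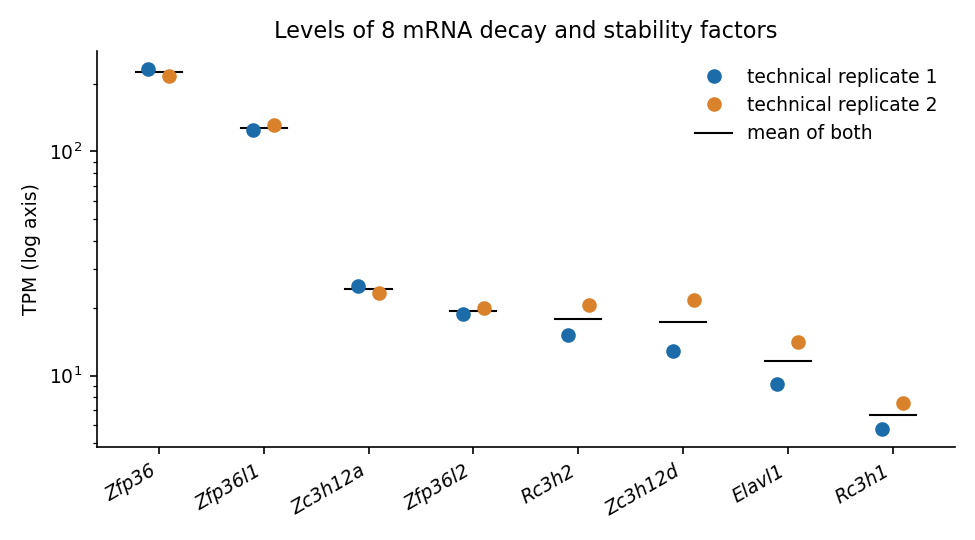
TPM of the 8 genes on a log axis, with a point for each technical replicate and a line at their mean. Zfp36 and Zfp36l1 stand above 100 TPM in both libraries, and the other genes lie between 5.79 and 25.2 TPM.

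Within the tristetraprolin family, Zfp36 made up 61.9% and 59.1% of the summed TPM in technical replicates 1 and 2, Zfp36l1 33.1% and 35.4%, and Zfp36l2 4.98% and 5.44%. The division was thus close to the same in both libraries. Within the Regnase family it was not: Zc3h12a took 60.6% and Zc3h12d 31.0% in technical replicate 1, against 48.6% and 45.2% in technical replicate 2. Rc3h2 took 72.3% and 73.2% of the Roquin sum. That sum counts all transcripts, and those of Rc3h2 without a coding sequence, described below, took a large part of its TPM. The Roquin shares are thus not shares of coding mRNA. No test was made of these shares.

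Some reads behind these values were divided with other genes. Zfp36 had 8017 and 6347 expected counts (estimated reads, which need not be whole), Zfp36l1 4491 and 3640, and Zfp36l2 923 and 834. The deposited counts of these 3 genes and of Elavl1 (443 and 465) were not whole. Those of Zc3h12a (962 and 737), Zc3h12d (736 and 1047), Rc3h1 (654 and 659) and Rc3h2 (1178 and 1189) were whole, as they would be where no read was divided between genes. Overlapping genes on the other strand matter where the counting did not use strand, which the sources do not state. The noncoding gene Gm26669 shares 1672 exonic bases with Zfp36l1 and had 83.4 and 43.5 expected counts, and Ccl25 shares 204 exonic bases with Elavl1 and had 281 and 240 expected counts.

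Of 6 paralogues of these genes, 2 were detected, and neither came near the level of a described gene. Zc3h12b, which encodes Regnase-2, had 1.87 and 1.54 TPM, and Zc3h12c, which encodes Regnase-3, had 1.59 and 1.44 TPM. Of the neuronal relatives of HuR, Elavl2 had 3 counts and 0, and Elavl3 had 2 counts and 0. Elavl4 had 0 counts in both libraries, where 3 counts would give 0.0846 and 0.0998 TPM. Its deposited posterior mean TPM was 0.70 and 0.81. The deposited credibility bounds of that mean, 0.243 to 1.24 and 0.266 to 1.44, lay above the level of 3 counts. Zfp36l3, a placental member of the tristetraprolin family, had 0 and 1 counts.

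The transcripts were described next, by the deposited percentage of each gene's TPM that a transcript takes. Zfp36 came almost wholly from Zfp36-202, at 94.7% and 93.5%, and Zc3h12a from Zc3h12a-201, at 100% and 97.1%. Zfp36l2 and Zc3h12d have 1 annotated transcript each. In Zfp36l1, Rc3h1 and Elavl1 the reads were mostly divided between a form with a long and a form with a short 3′ UTR. In all 3 genes the short form held a larger part in technical replicate 2.

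Zfp36l1-201 has a 3′ UTR of 1835 bases and had 91.0 and 70.6 TPM. Zfp36l1-202, with the same coding sequence and a 3′ UTR of 794 bases, had 24.2 and 48.2 TPM. The short form was therefore 21.03% of the pair in technical replicate 1 and 40.6% in technical replicate 2, while the pair summed to 115 and 119 TPM. The deposited credibility bounds of the posterior mean TPM did not overlap between the libraries for either transcript: 77.6 to 86.1 against 58.3 to 66.8 for the long form, and 16.0 to 27.5 against 36.5 to 49.1 for the short form. These bounds cover the division of reads within a library, not the making of the libraries.

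Rc3h1-202 has a 3′ UTR of 7181 bases and had 3.84 and 3.88 TPM. Rc3h1-201, which ends 20 bases after its stop codon and differs in coding sequence, had 1.08 and 3.66 TPM, with bounds of 0.376 to 1.59 and 2.45 to 4.01. The short form went from 21.95% to 48.54% of the pair. Nearly all of the difference of the pair between the libraries was thus in the short form. Outside the pair, Rc3h1-203, annotated as a retained intron, took 15% and 0% of the gene, from 7.53 and 0 counts.

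Elavl1-201 has a 3′ UTR of 4218 bases and had 2.96 and 2.51 TPM. Elavl1-204, whose 3′ UTR of 1257 bases is the first part of the long one, had 5.79 and 9.82 TPM, with bounds of 4.14 to 6.29 and 7.34 to 9.99. Its part of the pair was 66.2% and 79.6%. For HuR the short form was thus the larger one in each library. Elavl1-203, annotated as a retained intron and outside the pair, had 0.11 and 1.52 TPM, from 0.85 and 10.28 counts. It took 1.17% and 10.8% of the gene, so the difference of Elavl1 in TPM was not in the short form alone.

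Rc3h2 was divided among more transcripts than the others. Its largest, Rc3h2-202, had 4.59 and 8.12 TPM, or 30.4% and 39.4% of the gene. Rc3h2-209, annotated as a retained intron, had 3.47 and 4.53 TPM. Rc3h2-201, which differs from Rc3h2-202 in its coding sequence, had 2.63 and 0.170 TPM, with bounds that overlapped (1.10 to 4.10 and 2.87e-05 to 1.81). Rc3h2-204, annotated as a processed transcript without a coding sequence, had 0.36 and 3.61 TPM, from 2.36 and 20.07 counts. It took 2.39% and 17.5% of the gene. The coding transcripts Rc3h2-202, Rc3h2-201 and Rc3h2-203 took 30.4% and 39.4%, 17.4% and 0.82%, and 0% and 2.44%. The rest of the Rc3h2 TPM belonged to transcripts annotated without a coding sequence, and so did much of its difference between the libraries.

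**Figure D2:**
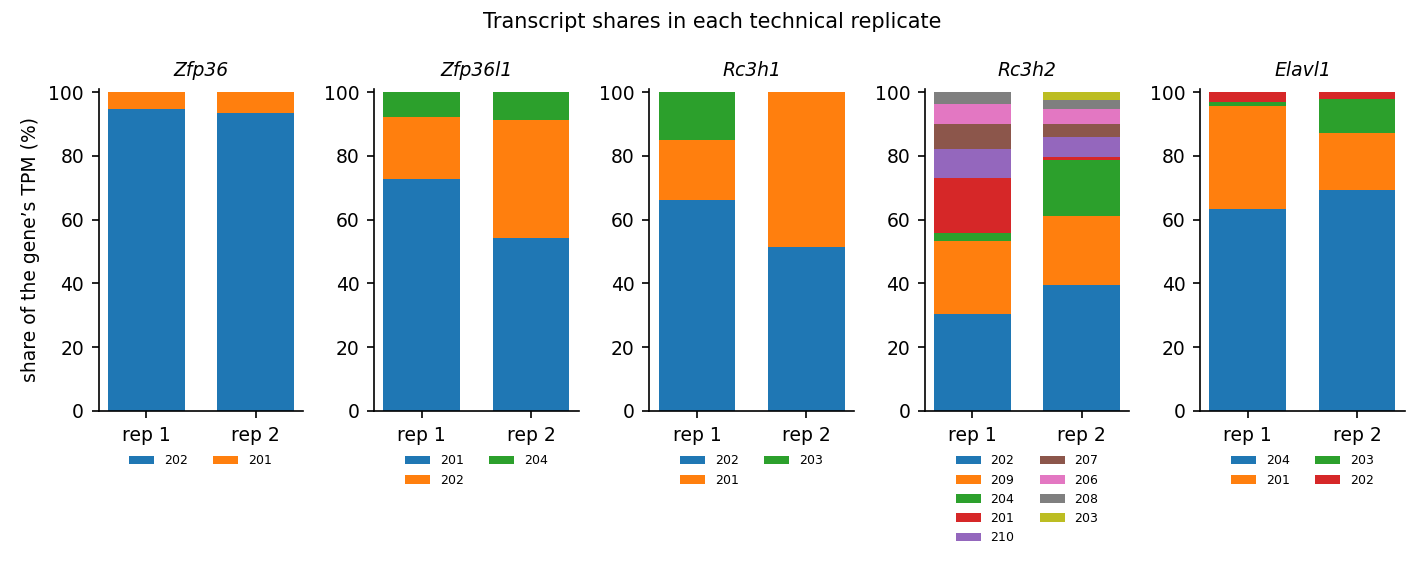
Share of each gene's TPM, in percent, taken by each annotated transcript in technical replicates 1 and 2, for the 5 genes whose reads were divided most; the key gives the last 3 digits of the transcript name. Zfp36-202 keeps 94.7% and 93.5%, and the short forms Zfp36l1-202 and Rc3h1-201 fill more of the second bar than of the first.

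The 3′ UTRs were searched for the signals that these proteins read, on the transcribed strand: ATTTA, the core of an AU-rich element; TATTTAT, the longer site that tristetraprolin prefers, which contains ATTTA; and TTCNNNGAA, a short stem with a loop of 3 bases that is the core of the stem-loop bound by Roquins. The sequences below are given because they are the signals themselves, first in Tnf, a reported target of both protein families, and then in mRNAs of the factors. Capitals mark ATTTA in 28-base windows with the most matches, and TTCNNNGAA in windows of 21 bases.
Tnf, AU-rich window: tATTTAttATTTATTTAttATTTATTTA
Csf2, AU-rich window: tttaaatATTTATTTATTTATTTATTTA
Elavl1, AU-rich window: tATTTATTTATTTATTTAtttttATTTA
Zfp36, AU-rich window: ggccctttATTTAtgacgactttATTTA
Tnf, stem-loop core: catgttTTCTGTGAAaacgga
Nfkbid, first stem-loop core: ggtgatTTCTGTGAAatcgag
Nfkbid, second stem-loop core: gattgtTTCTGTGAAacactc
Rc3h1, first stem-loop core: tttttgTTCTGTGAAtgaact
Rc3h2, first stem-loop core: attaacTTCTGTGAAgttgtt
The AU-rich windows lie at chr17:35199679-35199706 (Tnf), chr11:54247329-54247356 (Csf2), chr8:4285778-4285805 (Elavl1) and chr7:28376963-28376990 (Zfp36), all on the minus strand of mm10. The stem-loop cores lie at chr17:35199582-35199602 (Tnf, minus), chr7:30428399-30428419 and chr7:30428427-30428447 (Nfkbid, plus), chr1:160968036-160968056 (Rc3h1, plus) and chr2:37373806-37373826 (Rc3h2, minus). A match is a description and not a shown binding site.

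The factors' own mRNAs held these letters to different degrees. The 3′ UTR of Zfp36-202, with 767 bases, held TATTTAT 3 times, where 19.5% of the 5459 protein-coding 3′ UTRs of similar length (0.8 to 1.25 times) held it at all. Zfp36l1-201 and Zfp36l2-201 also held it 3 times each, against 38.5% and 38.2% of 3′ UTRs of their length with a match. Zc3h12a and Zc3h12d held none, against 20.9% and 45.0%.

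Elavl1-201 held TATTTAT 8 times, where 62.4% of like 3′ UTRs had a match, and the cluster printed above begins 3795 bases after the stop codon. The short Elavl1-204 ends before it and held none (30.4% of like 3′ UTRs had a match). Zfp36l1-202 likewise held none, where 19.96% of like 3′ UTRs had a match. Read with the transcript values, the HuR mRNA without the cluster was the larger one in each library.

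TTCNNNGAA was found 7 times in Rc3h1-202, where 90.4% of 3′ UTRs of that length had a match, and 3 times in Rc3h2-202, against 84.5%. In 3′ UTRs this long a match is thus common, and Rc3h1-201, with 20 bases, was not searched. Nfkbid, with 559 bases, held 2 matches, against 16.2% of like 3′ UTRs with any, and Tnf held 1 of TTCNNNGAA and 8 of TATTTAT, against 23.3% and 19.5%. Tnf, Csf2 and Nfkbid were chosen for printing after their sequences were seen.

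**Figure D3:**
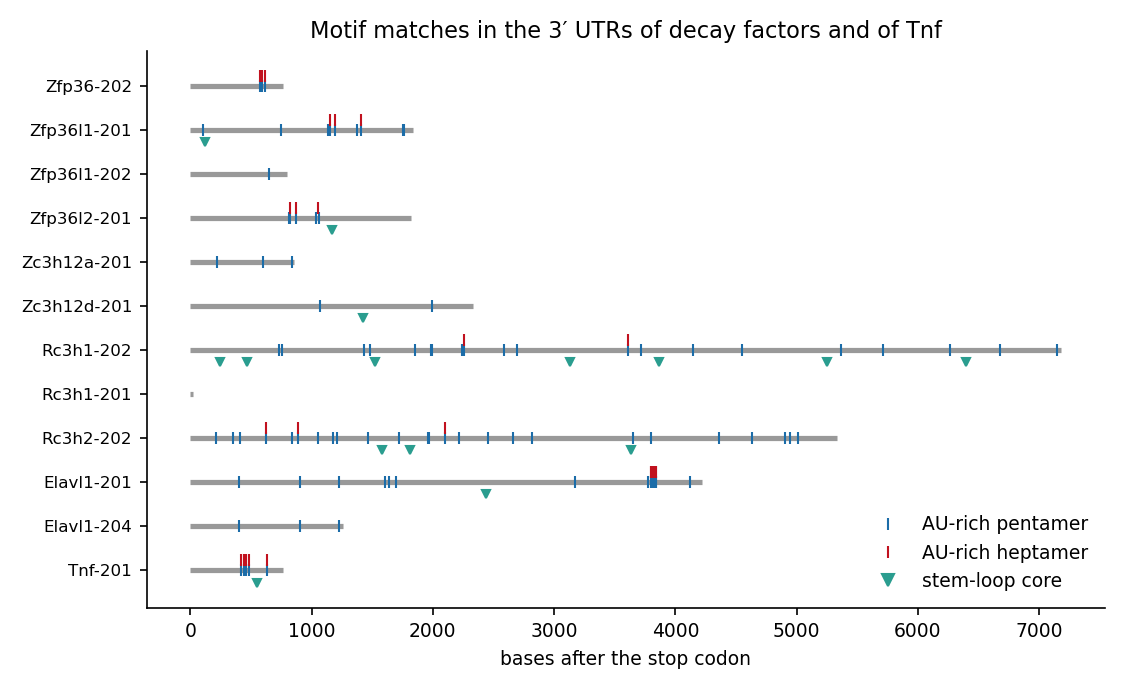
Motif matches along the 3′ UTRs of 11 transcripts of the factors and of Tnf-201, in bases after the stop codon; the grey line is the 3′ UTR, ticks are the AU-rich pentamer and heptamer, and triangles the stem-loop core. The 8 heptamers of Elavl1-201 are absent from Elavl1-204, which ends after 1257 bases.

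The technical libraries were then compared with each other, which asks how firmly each level is known. The test was a two-sided exact binomial test on rounded expected counts against library sizes scaled by edgeR's TMM, over 16553 genes with at least 10 counts, adjusted by Benjamini-Hochberg at 0.05. It called 34.1% of all genes, 21.4% higher and 12.7% lower in technical replicate 2. Of the 8 genes 4 were higher, 1 was lower and 3 passed no threshold, with a median log2 ratio of 0.17 against 0.02 over all genes tested. Scaled by total counts they were 3 higher and 3 lower (18.4% and 19.9% of all genes). Lower calls also numbered 3 with DESeq2 size factors (16.4% of all genes), with the length trend removed (19%) and with the GC trend removed (18.9%). With the length trend removed, 1 of the 8 genes was higher (17.8% of all genes), and with the GC trend removed 4 were (17.5%), so the split into higher and lower rests on the scaling.

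In these counts Zc3h12d had the largest ratio of the 8 genes. It had 736 and 1047 counts, which gave a log2 ratio of 0.74 ± 0.07 (counting SE; adjusted p = 8.44e-26, exact binomial test), and 18.99% of all tested genes had a ratio at least as large in either direction. Rc3h2 was higher by 0.25 ± 0.06 (adjusted p = 0.000177, exact binomial test) and Rc3h1 by 0.24 ± 0.08 (adjusted p = 0.00867, exact binomial test). Elavl1 was higher by 0.30 ± 0.10 (adjusted p = 0.00654, exact binomial test). Ratios of the size of these 3 were ordinary between the libraries, reached by 49.7%, 49.97% and 44.1% of tested genes in that order.

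Zfp36 was lower, with a log2 ratio of −0.10 ± 0.02 (adjusted p = 0.000106, exact binomial test), a size that 74.1% of tested genes reached. Zfp36l1 had −0.07 ± 0.03 (adjusted p = 0.0838, exact binomial test), Zc3h12a −0.15 ± 0.07 (adjusted p = 0.0907, exact binomial test) and Zfp36l2 0.09 ± 0.07 (adjusted p = 0.381, exact binomial test). With the spread between the libraries allowed for (edgeR's exact test, trended dispersion estimated over all genes from the 2 libraries as replicates), 0 of the 8 genes were called, 0 had an unadjusted p under 0.05, and 83 of all genes (0.501%) were called. That dispersion stood for a coefficient of variation between 15.3% (Zfp36) and 21.7% (Elavl1).

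For 3 genes the TPM differed more than the counts did. The log2 ratio of TPM + 1 was 0.58 for Elavl1, 0.43 for Rc3h2 and 0.33 for Rc3h1. The deposited effective length of each gene, which follows the transcript mix, was shorter in technical replicate 2 by a log2 ratio of −0.32 for Elavl1, −0.20 for Rc3h2 and −0.13 for both Rc3h1 and Zfp36l1. Of all tested genes 3.94%, 7.21%, 10.6% and 10.9% had a ratio as low as Elavl1, Rc3h2, Rc3h1 and Zfp36l1, and the median was 0. For Zfp36l1 the sign turned with it: counts were −0.07 and TPM + 1 was 0.06. The part of RNA quality or fragmentation in this was not tested.

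The counts on the older annotation, GENCODE M4, gave other differences for some genes. Zfp36l2 had 114 and 188 counts there, 12.4% and 22.5% of its newer counts, where all genes together had 28.9% and 31.7%. Its log2 ratio there was 0.83 (adjusted p = 8.92e-06, exact binomial test) against 0.09 in the newer counts. It was the largest of the 8 genes in the older counts, where Elavl1 had 0.75 and Zc3h12d 0.73. In the older counts 5 of the 8 genes were higher and 0 lower. Over all genes in the older counts 26.6% were called, 19% higher and 7.53% lower.

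**Figure D4:**
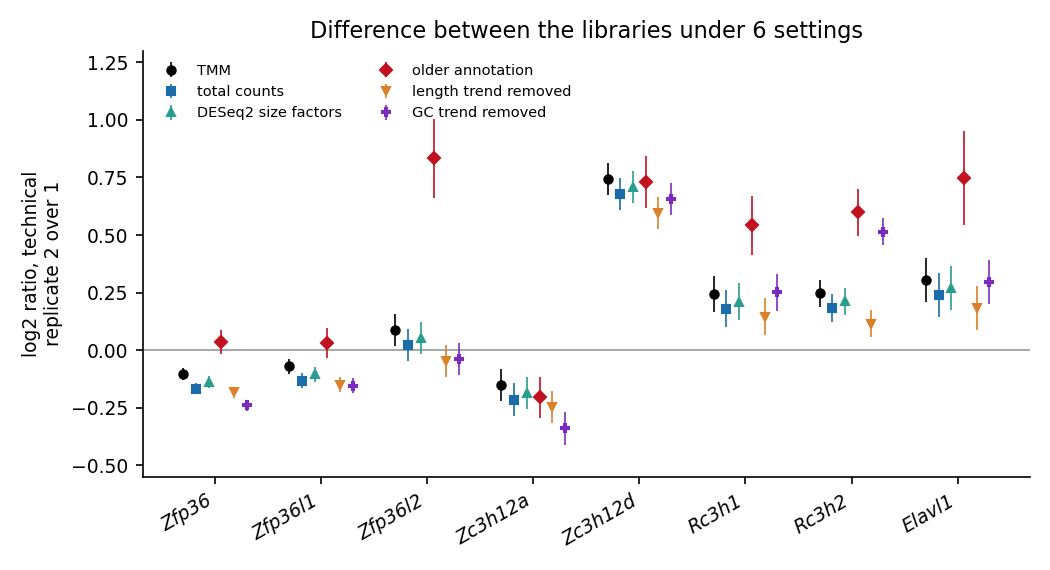
Log2 ratio of technical replicate 2 over 1 for each gene under 6 settings, with bars for the counting standard error. Zc3h12d lies near 0.7 under each of these settings, while Zfp36 and Zfp36l1 cross 0 with the older annotation.

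The listed genes of the machinery that these proteins call on were all detected. All 16 genes of the CCR4-NOT deadenylase and its adaptors were detected, with a median level of 57.0 TPM, where the detected genes as a whole had a median of 19.1 TPM. The highest was the adaptor Btg2 with 228 and 238 TPM, followed by the scaffold Cnot1 with 133 and 135 TPM, on which tristetraprolin and Roquin dock. Btg1, a further adaptor, had 73.0 and 166 TPM and was higher in technical replicate 2 by 0.70 ± 0.03 (adjusted p = 4.43e-134, exact binomial test). Cnot11 (3.17 and 5.53 TPM) had a log2 ratio of 1.15, and the lowest was Btg3 at 2.98 and 2.56 TPM. In this list 6 genes were higher and 3 lower, where 21.4% and 12.7% of all genes tested were. The counts became 5 and 5 with the length trend removed (17.8% and 19% of all genes). They became 6 and 5 with the GC trend removed (17.5% and 18.9% of all genes).

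All 17 genes of decapping and 5′ decay were detected, their median being 55.5 TPM, with 5 higher and 5 lower. Lsm4, Lsm7 and Lsm6, subunits of the ring that binds shortened tails, led with 255, 178 and 128 TPM, and Patl1 was lowest at 16.3 TPM. All 14 listed genes of the RNA exosome and its helicase complex were detected (median 77.1 TPM), but Exosc6 was not on the list. They were led by Exosc8 at 160 ± 4.17 TPM, Skiv2l at 122 ± 9.77 TPM and Exosc5 at 112 ± 14.1 TPM. The nuclease gene Dis3 was lowest at 6.58 ± 2.64 TPM. Of the exosome genes 4 were higher and 3 lower, but 3 and 5 with total counts or the GC trend removed, and 3 and 4 with the length trend removed. Among 5 genes of other deadenylases and poly(A) binding, all detected, 1 was higher and 1 lower. Pabpc1 had 221 and 242 TPM, Parn 53.4 and 56.7 TPM, Pan2 41.5 and 41.6 TPM and Pabpc4 3.99 and 5.25 TPM. Beside these 3 lists, 21.4% of all genes tested were higher and 12.7% lower, or 18.4% and 19.9% with total counts. The shares were 17.5% and 18.9% with the GC trend removed, and 17.8% and 19% with the length trend removed.

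All 12 genes of other proteins that bind AU-rich elements or stem-loops, or work with the factors, were detected (median 54.6 TPM). Of these 5 were higher and 2 lower, where 21.4% and 12.7% of all genes tested were. With the length trend removed 4 were higher and 5 lower, where 17.8% and 19% of all genes were. Hnrnpf, an RNA-binding protein of splicing, had 1039 and 1094 TPM. Arid5a, which binds stem-loops and opposes Regnase-1, had 130 and 128 TPM, and Tia1, a translational repressor, 105 and 110 TPM. The helicase gene Upf1, which Regnase-1 works with, was the lowest at 2.5 and 6.36 TPM, a log2 ratio of 1.34 ± 0.14 (adjusted p = 2.57e-22, exact binomial test). Upf1 was thus below Zc3h12a in both libraries.

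Of 12 genes through which signals act on the factors, 12 were detected (median 44.9 TPM), 6 of them higher and 0 lower. Ywhaz, an adaptor that holds phosphorylated tristetraprolin, had 748 and 756 TPM, Ikbkb, a kinase that targets Regnase-1 for destruction, had 220 and 225 TPM, and Mapkapk3 had 108 and 123 TPM. Ppp2ca, a phosphatase subunit, was lowest at 5.05 and 4.08 TPM. Malt1, the paracaspase that cleaves Regnase-1 and the Roquins, had 19.2 and 26.2 TPM and was named after its values were seen. The direction was not kept by every scaling: with total counts 5 were higher and 1 lower, with the length trend removed 5 and 4, and with the GC trend removed 4 and 2. Over all genes tested 21.4% were higher and 12.7% lower, and 17.8% and 19% with the length trend removed. The shares were 18.4% and 19.9% with total counts, and 17.5% and 18.9% with the GC trend removed.

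Of 23 reported target mRNAs 18 were detected. The 23 levels ran from 0 to 762 TPM, with a median of 17.8 TPM. Tnfrsf4, Ctla4 and Icos, reported targets of Roquins and the first and last also of Regnase-1, stood at 764 and 759, 266 and 271, and 202 and 203 TPM. Il12b, Il17a and Ptgs2 had 0 counts in both libraries. The 3 highest genes of the list were thus receptor mRNAs. Of 18 tested, 7 were higher and 1 lower, where 21.4% and 12.7% of all genes tested were. With total counts 4 were higher and 3 lower (18.4% and 19.9% of all genes), and so with DESeq2 size factors (19.6% and 16.4%). With the length trend removed 4 were higher and 2 lower (17.8% and 19% of all genes). Tnf, named for its printed sites, had 44.6 and 50.5 TPM, and Nfkbid, named for the same reason, 82.3 and 107 TPM. With 1 group, no relation between the level of a factor and that of a target can be tested.

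**Figure D5:**
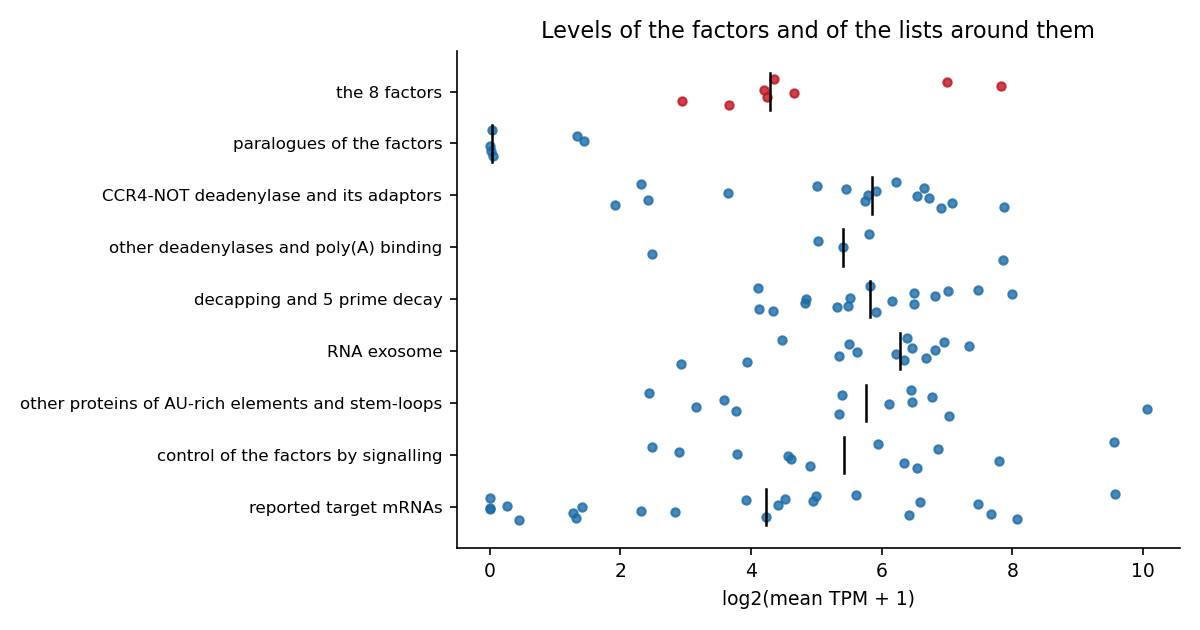
Mean TPM over both libraries on the scale log2(TPM + 1), for the 8 genes (red) and for each list (blue), with a bar at the median. The paralogues sit near 0 except Zc3h12b and Zc3h12c, with means of 1.705 and 1.515 TPM. The CCR4-NOT deadenylase, decapping and exosome lists have medians of 57.0, 55.5 and 77.1 TPM, and the reported targets spread from 0 to 762 TPM.

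As a check of the labelled cell type, all 6 regulatory T cell markers were detected, Foxp3 at 88.6 and 83.6 TPM. The 6 include Cd4 and Cd3e, which are not confined to regulatory T cells. Gene counts summed to 20891069 and 18571065. Of 29 markers of other cell types 11 were detected, with summed TPM of 220 and 234, of which the erythroid markers held 112 and 140. B cell markers held 41.3 and 40.9, led by Cd79b with 32.7 and 32.5 TPM. CD8 T cell markers held 26.2 and 23.4, those of monocytes or macrophages 25.3 and 19.4, and those of natural killer cells 12.2 and 7.83. Platelet markers held 1.82 and 1.28, dendritic cell markers 1 and 0.53, and 4 neutrophil markers were at 0. The part of other cells in the levels of the factors was not tested.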

How the data were processed

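Polyadenylated RNA was measured in 2 technical replicate libraries of 1 group. The expected counts, the TPM, the percent of each gene per transcript and a signal, the posterior mean of the TPM with its credibility bounds, were deposited by the authors on mm10 with GENCODE M21, per the file headers and deposited descriptions, and so were whole-number counts on GENCODE M4. Aligner, quantifier and versions are not given in the sources used here. Rows that named no gene were left out, and 55536 genes remained. Expected counts were rounded, scaled with TMM (edgeR 4.0.16; factors 1.02 and 0.978, over all named genes) and tested with SciPy 1.17.1; log2 ratios had 0.5 added to each count. The quasi-likelihood test could not be fitted without residual degrees of freedom. Alternatives were total counts, DESeq2 1.42.0 size factors, count minimums of 1 and 50, the older counts, a trended dispersion, and removal of length or GC trends (lowess span 0.3). The test was checked on simulated counts that held counting error and set folds only. That check could not cover the further spread between these libraries. Counts from PCR without molecular identifiers are not independent molecules, so errors cover counting only. Gene names and UTR sequences came from GENCODE M21. Named genes were the 8 genes, all paralogues, and of each list the 3 highest, the lowest and any gene called with a log2 ratio of at least 1; genes outside this rule are said to be so or are given as background to a factor. The members, lists and alternatives were chosen with earlier results of these data known.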

Additional observations from a re-analysis of the deposited data

How the results depend on the processing

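The detection counts and the largest transcript of each gene kept their place in most settings. For the levels, leaving out a library could not decide, because each of 2 values always lies within the SD of their mean. The posterior mean TPM was lower than the mean TPM by more than the SD for Zfp36 (201 against 225), Zfp36l1 (115 against 128), Zfp36l2 (17.3 against 19.4) and Zc3h12a (22.1 against 24.2). The order of the 8 genes by this value was the same as by mean TPM. With a trended dispersion the genes differing between libraries fell from 5640 to 83 of 16553 tested (34.1% to 0.501%). The calls among the 8 genes fell from 5 to 0 (4 to 0 higher, 1 to 0 lower). Calls also fell to 0 in each of the CCR4-NOT, other deadenylase, decapping, exosome, AU-rich, signalling and target lists (from 9, 2, 10, 7, 7, 6 and 8). With the older counts 3058 of 11507 genes tested differed (26.6%). None of the 8 genes was lower (0), where 7.53% of all genes tested were. The other deadenylase, decapping and AU-rich lists had 1, 6 and 4 calls in the older counts, of 5, 17 and 12 genes tested. Lower calls among the 8 genes were 3 with total counts, with DESeq2 size factors, with the length trend removed and with the GC trend removed. In that order 19.9%, 16.4%, 19% and 18.9% of all genes tested were lower. The higher calls were 1 with the length trend removed (17.8% of all genes). With the GC trend removed, a setting chosen after seeing the data, the other deadenylase list had 1 call of 5 genes tested (36.4% of all genes were called). At a threshold of 5 TPM, 0 paralogues were detected. Signs turned for Zfp36 and Zfp36l1 with the older counts (log2 ratios of 0.035 and 0.031), for Zfp36l1 in TPM + 1 (0.061), and for Zfp36l2 with the length trend (−0.047) or the GC trend (−0.037) removed. The causes were not tested. Zc3h12d was higher under all 10 alternatives (0.60 to 0.74) but was not called with the trended dispersion (adjusted p = 0.874, edgeR's exact test). No paired analysis was possible because there is 1 group. Elavl1 and Rc3h1 rest on the fewest counts among the 8 genes in the newer tables, which limits the counting precision of their ratios.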
